A study of Mus musculus with 8 samples.

Results

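The genes described here are 9 genes of iron and heme handling, chosen by symbol: the ferritin chains Fth1 and Ftl1, the ferritin receptor of autophagy Ncoa4, the transferrin receptor Tfrc, the reductase Steap4, the transporters Slc11a2 and Slc40a1, the heme-degrading enzyme Hmox1 and the iron-sensing protein Ireb2. All 9 had a row among the 55414 gene rows of the count tables, and all 9 passed the filter on low counts, which left 16778 genes. They were measured by RNAseq in neutrophils sorted from the spleen, in 4 WT and 4 Cxcr2-/- libraries from 4 animals per group. All mice had the FVB background, were aged 10 weeks and were kept in SOPF housing, a facility free of specific and opportunistic pathogens. The Cxcr2-/- mice had been backcrossed to FVB, and DNA of the original strain near Cxcr2 was not examined. Cxcr2 is the receptor through which neutrophils sense ELR+ CXC chemokines, and the Cxcr2-/- mice lack it in every cell, so that the other cells of the spleen lacked it too. Whether the WT mice were littermates is not stated. The cells were enriched for CD11b and sorted as CD45+ CD11b+ Ly6G+ F4/80- after lysis of red cells.

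Ferritin is a shell of heavy (Fth1) and light (Ftl1) chains that keeps iron in a safe form, and Ncoa4 carries it to the lysosome when the iron is needed. Iron enters cells on transferrin through Tfrc, is reduced by Steap proteins, crosses the endosomal membrane through Slc11a2 and leaves the cell through Slc40a1 (ferroportin), while Hmox1 frees iron from heme. When iron is scarce, the iron regulatory proteins (Ireb2 is one of the pair) bind a hairpin in these mRNAs, the iron-responsive element. Bound near the 5′ end, they block translation, and bound in the 3′ UTR of Tfrc, they protect the mRNA from decay. Neutrophils also hold iron-binding proteins in their granules, with which they withhold iron from microbes.

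The hairpins are shown first, since the matches found divide the genes that have them by place. A pattern with a single C, a stem of 5 base pairs (G with U allowed) and the loop CAGTGN, where the last base was not G, was searched on the sense strand of the protein-coding transcripts of GENCODE M21 (GRCm38). For the 9 genes only the transcripts marked as principal in the annotation were read, and the pattern was found in 4 of the 9. Over all protein-coding transcripts it was found in 222 of 21901 coding genes (1.01%), so these shares differ in what was searched. Fth1, Ftl1 and Slc40a1 had 1 match each in the 5′ UTR of the first listed transcript, and Tfrc had 4 in its 3′ UTR. Slc11a2, Ncoa4, Steap4, Hmox1 and Ireb2 had no match to these letters in their principal transcripts. The pattern allows no unpaired base within the stem of 5 pairs, so a gene without a match may still hold an element. Each match below is written 5′ to 3′ as DNA, with the loop of 6 bases in capitals.
Fth1, chr19:9982733-9982759, + strand, 5′ UTR: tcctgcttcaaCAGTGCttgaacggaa
Ftl1, chr7:45459780-45459806, - strand, 5′ UTR: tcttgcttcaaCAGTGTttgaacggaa
Slc40a1, chr1:45925466-45925492, - strand, 5′ UTR: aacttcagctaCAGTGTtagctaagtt
Tfrc, chr16:32631220-32631246, + strand, 3′ UTR: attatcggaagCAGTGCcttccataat
Tfrc, chr16:32631599-32631625, + strand, 3′ UTR: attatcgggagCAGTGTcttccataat
Tfrc, chr16:32631664-32631690, + strand, 3′ UTR: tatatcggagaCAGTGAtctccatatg
Tfrc, chr16:32631711-32631737, + strand, 3′ UTR: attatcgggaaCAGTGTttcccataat
A match describes the transcript and is not a measurement of protein binding or of translation, and the counts give RNA only.

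Counts on genes ran from 34220182 to 46233555 over the WT libraries and from 37549648 to 43789253 over the knockout libraries. Expression is given as CPM, the share of a library's counts on a common scale, with the library size corrected by TMM, a factor for differences in composition. Values of a group are mean ± SD over its 4 mice. Cxcr2 itself ranged from 1719 to 2252 CPM over WT libraries, against 12.9 to 20.7 CPM over knockout libraries, as each label has it. All 8 neutrophil markers examined were detected in every library, S100a8 at no less than 8956 CPM, and 6 of the 8 were higher, 1 (Csf3r) lower and 1 (Itgam) did not pass. Neither of the 2 T cell markers tested passed. Genes were compared with edgeR's quasi-likelihood test and Benjamini-Hochberg adjustment over all 16778 genes, and a gene passed with an adjusted p under 0.05. Fold changes are Cxcr2-/- over WT, and "SE" is the standard error of the log2 fold change.

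Of the 9 genes, 3 fell in Cxcr2-/- neutrophils (Fth1, Ftl1 and Slc40a1), 2 rose (Steap4 and Hmox1) and 4 did not pass (Tfrc, Slc11a2, Ncoa4 and Ireb2). The 3 genes that fell are those with a match to the hairpin pattern in the 5′ UTR, a description made after the values were seen. The counts give RNA only, and a part of the hairpin in these falls was not tested. The rise of Hmox1 was small and did not pass under most other settings. Over all genes, 44.7% passed, 23.7% higher and 21.0% lower, so that 5 of 9 was near the background. With a change of at least 1.5-fold also asked for, 4 of the 9 genes remained, against 31.3% of all genes. The CPM of the groups did not overlap for 5 of the 9 genes and for 41.6% of all genes. The median log2 fold change was 0.02 over the 9 genes and 0.01 over all genes tested.

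**Figure D1:**
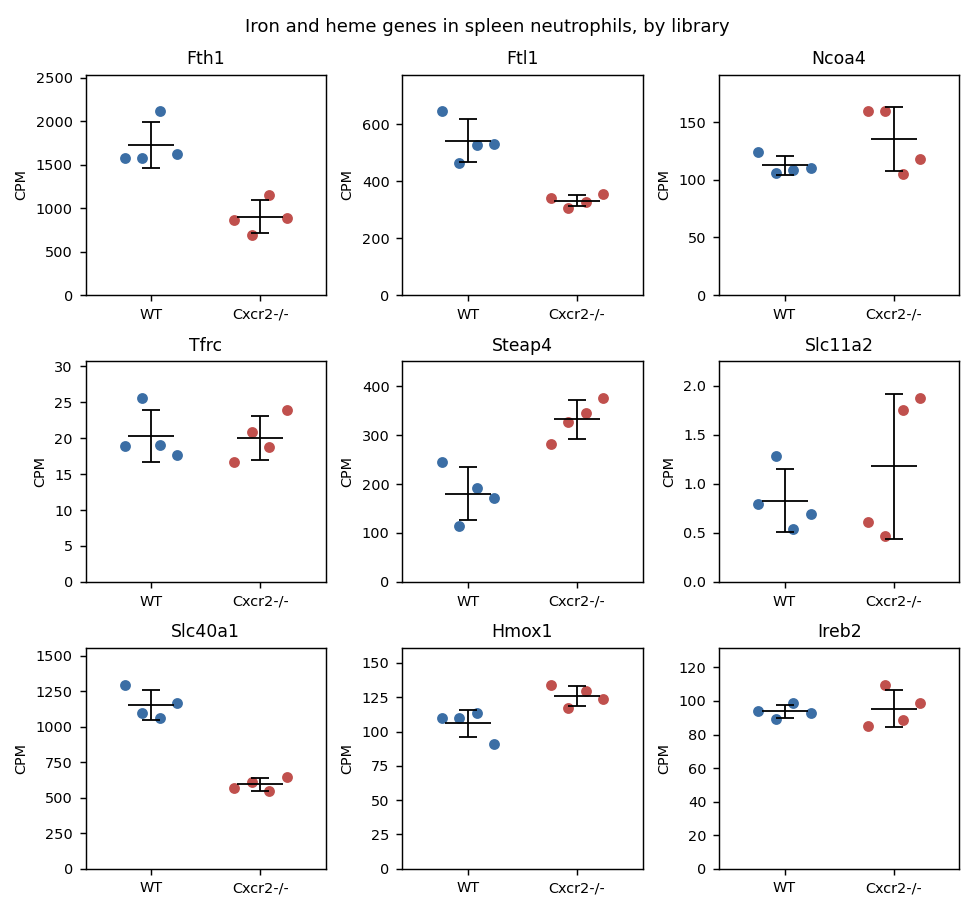
CPM (y axis, from 0) of the 9 genes in each of the 4 WT (blue) and 4 Cxcr2-/- (red) libraries, in replicate order from left to right, with a line for the mean and bars for the SD. Fth1, Ftl1 and Slc40a1 are lower and Steap4 is higher in every Cxcr2-/- library than in any WT library, Hmox1 is separated narrowly, and the other 4 genes overlap.

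Fth1 encodes the heavy chain of ferritin, which oxidises iron on its way into the shell. The gene (ENSMUSG00000024661) lies on the + strand of chromosome 19 from 9980598 to 9985098 of GRCm38. The 4 WT libraries held 1581, 1576, 2114 and 1625 CPM, and the 4 Cxcr2-/- libraries 865, 696, 1153 and 892 CPM. The WT library of replicate 3 stood above the other WT libraries, and the groups did not overlap. WT neutrophils averaged 1724 ± 261 CPM and Cxcr2-/- neutrophils 901 ± 189 CPM. This is a log2 fold change of -0.94 (SE 0.16, edgeR adjusted p = 0.000403), leaving 52.3% of the WT level.

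Ftl1 encodes the light chain, which helps the iron core to form. The gene (ENSMUSG00000050708) lies on the - strand of chromosome 7 from 45457944 to 45459884. It was at 646, 465, 526 and 531 CPM in the WT libraries and at 339, 308, 327 and 354 CPM in the Cxcr2-/- libraries. Every Cxcr2-/- library was below the lowest WT library, and the Cxcr2-/- libraries lay close together. The means were 542 ± 75.4 and 332 ± 19.8 CPM, with a log2 fold change of -0.71 (SE 0.11, edgeR adjusted p = 0.000253). Both ferritin genes have near-identical copies in the genome, and how reads that fit several copies were treated is not stated. Few reads were counted on the annotated copies: the most were 0.515% of the Fth1 counts, on Fth-ps2, and 0.131% of the Ftl1 counts, on Ftl1-ps1. A gene on the opposite strand, Gm10252, shares 355 exon bases with Ftl1, and the strand setting of the counting is not stated. Gm22133, a miRNA gene on the same strand, shares 109 exon bases with Ftl1. How reads in such overlaps were treated is not stated either.

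The ratio of Fth1 to Ftl1 counts tells whether the chains changed in step, and it needs no scaling between libraries. It was 2.45, 3.39, 4.02 and 3.06 in WT and 2.55, 2.26, 3.53 and 2.52 in Cxcr2-/- neutrophils. The groups overlapped, with means of 3.23 ± 0.654 and 2.71 ± 0.559. The log2 difference was -0.25 (two-sided p = 0.314, exact permutation, adjusted p = 0.314 over 2 ratios), and 4 mice against 4 allow no p below 0.0286 in such an exact test.

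Ncoa4 encodes the receptor that delivers ferritin to the lysosome. The gene (ENSMUSG00000056234) lies on the + strand of chromosome 14 from 32159865 to 32179855. It was at 125, 106, 109 and 111 CPM in the WT libraries and at 159.3, 159.5, 105 and 118 CPM in the Cxcr2-/- libraries. The Cxcr2-/- replicates 1 and 2 were above every WT library, while replicates 3 and 4 lay within or just below the WT range. The log2 fold change of 0.27 (SE 0.13) did not pass (edgeR adjusted p = 0.125), with an approximate 95% interval from 0.00 to 0.53. Without Cxcr2-/- replicate 3 it passed, at 0.36 (edgeR adjusted p = 0.0347). Of the other storage genes listed, Pcbp1 and Pcbp2, which encode chaperones that hand iron to ferritin, and Herc2, whose product marks Ncoa4 for degradation, were tested and none passed. Their log2 fold changes were 0.18 for Pcbp1, -0.12 for Pcbp2 and 0.27 for Herc2. Pcbp2 passed as lower with upper-quartile normalization (-0.24, edgeR adjusted p = 0.0427) and total-count scaling (-0.22, edgeR adjusted p = 0.0487), and Herc2 as higher without Cxcr2-/- replicate 3 (0.32, edgeR adjusted p = 0.0369).

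Slc40a1 encodes ferroportin, the known exporter of iron from cells, which is abundant in the red pulp macrophages of the spleen. The gene (ENSMUSG00000025993) lies on the - strand of chromosome 1 from 45908068 to 45926523. It was at 1293, 1093, 1059 and 1167 CPM in the WT libraries and at 572, 611, 545 and 647 CPM in the Cxcr2-/- libraries. The groups were far apart, with less spread within each than for Fth1. WT neutrophils averaged 1153 ± 104 CPM and Cxcr2-/- neutrophils 593 ± 44.5 CPM. That gives a log2 fold change of -0.96 (SE 0.11, edgeR adjusted p = 1.65e-05), a fall to 51.5% of the WT level. Of the other export genes, Cp (ceruloplasmin, an oxidase that helps iron onto transferrin) was the 1 tested. It was low, averaging 3.15 ± 0.560 CPM in WT against 2.10 ± 0.374 CPM, and passed as lower (log2 fold change -0.59, edgeR adjusted p = 0.0369) with groups that overlapped. That call was lost in 7 of 15 other fits of Cp: with no filter (edgeR adjusted p = 0.0560), without WT replicates 2 (0.100), 3 (0.0629) or 4 (0.0620), and without Cxcr2-/- replicates 1 (0.0759), 3 (0.0904) or 4 (0.0628).

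In bulk RNA, fewer cells of a type and less RNA per cell cannot be told apart, so the markers of macrophages are given beside Slc40a1. All 13 macrophage markers were tested, 3 were lower (Csf1r, Adgre1 and Marco), 1 was higher (Mertk) and 9 did not pass. Summed over the 13, the level was 452 to 553 CPM in WT and 208 to 311 CPM in Cxcr2-/- neutrophils, so that the groups did not overlap and the sum was lower where Slc40a1 was lower. No marker was at 0 in every library (Cd163 was at 0 in Cxcr2-/- replicate 1 and Marco in replicate 2). Csf1r, the receptor of CSF1, made up most of it, at 442 ± 41.1 and 232 ± 42.1 CPM. Without Csf1r and Adgre1 (the gene of F4/80), a choice made after seeing their values, the other 11 markers, among them Spic, Vcam1, Cd163 and the C1q genes, summed to 21.7, 68.3, 22.2 and 5.41 CPM in WT and to 13.2, 8.63, 19.2 and 27.1 CPM in Cxcr2-/- libraries. The groups overlapped in that smaller sum. The part of macrophages or other Csf1r-expressing cells in the level of Slc40a1 was not tested.

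**Figure D2:**
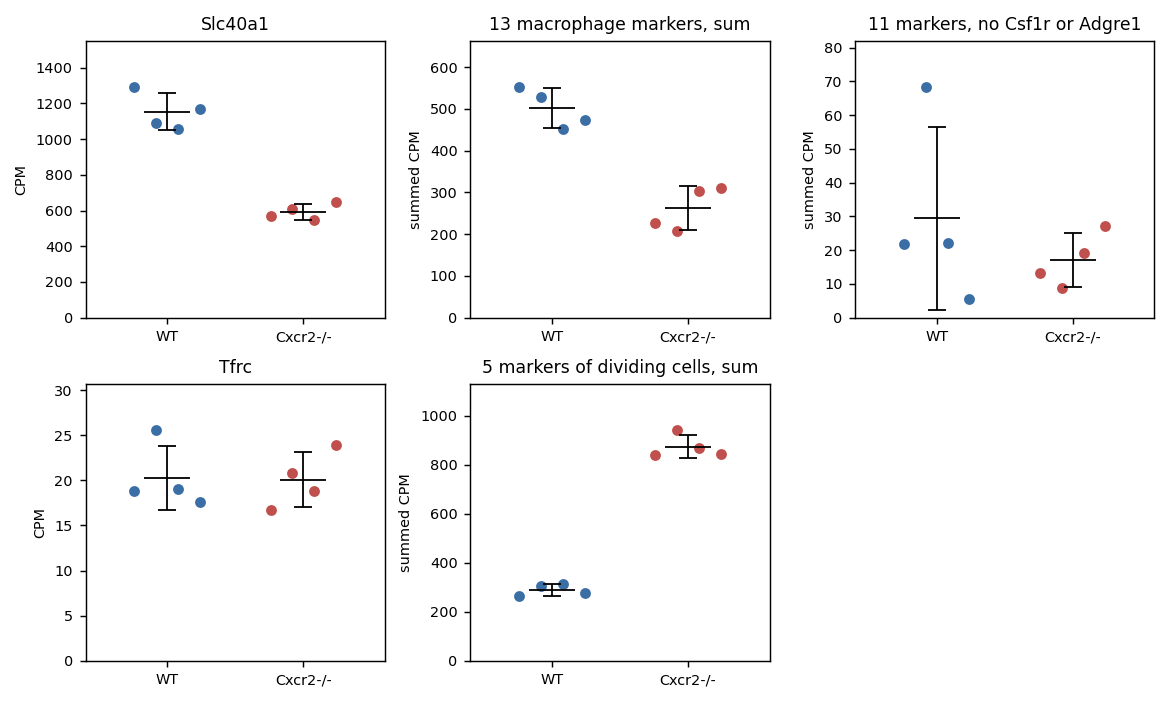
CPM of Slc40a1 beside summed CPM of 13 macrophage markers and of the 11 left without Csf1r and Adgre1 (top), and CPM of Tfrc beside summed CPM of 5 markers of dividing cells (bottom), per library, with the mean and SD of the 4 WT (blue) and 4 Cxcr2-/- (red) mice. Slc40a1 and the sum of 13 markers (452 to 553 CPM in WT, 208 to 311 CPM in Cxcr2-/- neutrophils) both separate the groups and the sum of 11 overlaps, while Tfrc overlaps and the sum for dividing cells is 263 to 312 CPM in WT and 839 to 941 CPM in Cxcr2-/- neutrophils.

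Tfrc encodes the transferrin receptor, the main entry of iron, and is known to be high in dividing and erythroid cells. The gene (ENSMUSG00000022797) lies on the + strand of chromosome 16 from 32608920 to 32632794. It was at 18.9, 25.6, 19.0 and 17.6 CPM in the WT libraries and at 16.8, 20.8, 18.8 and 24.0 CPM in the Cxcr2-/- libraries. The groups overlapped fully, at 20.3 ± 3.59 and 20.1 ± 3.07 CPM. Their log2 fold change was -0.02 (SE 0.14, edgeR adjusted p = 0.938), and the approximate 95% interval ran from -0.29 to 0.26. In the same libraries all 5 markers of dividing cells rose, for example Mki67 from 214 ± 21.6 to 569 ± 23.4 CPM and Top2a from 56.5 ± 6.09 to 212 ± 21.8 CPM. The part of dividing cells in the level of Tfrc was not tested.

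The ratio of Tfrc to Fth1 counts sets uptake against storage, the transcripts whose hairpins lie at opposite ends. It was 0.0119, 0.0162, 0.00900 and 0.0109 in WT and 0.0194, 0.0299, 0.0163 and 0.0269 in Cxcr2-/- libraries. Every Cxcr2-/- library was above every WT library, the closest pair being Cxcr2-/- replicate 3 and WT replicate 2. The log2 difference was 0.94, or 1.91-fold, with p = 0.0286 by the exact permutation test (two-sided), the smallest that 4 against 4 can give. This difference did not pass after adjustment over the 2 ratios (adjusted p = 0.0572). Tfrc had a log2 fold change of -0.02 and Fth1 of -0.94. The ratio therefore largely restates the fall of Fth1 in the same libraries and is not a separate result.

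**Figure D3:**
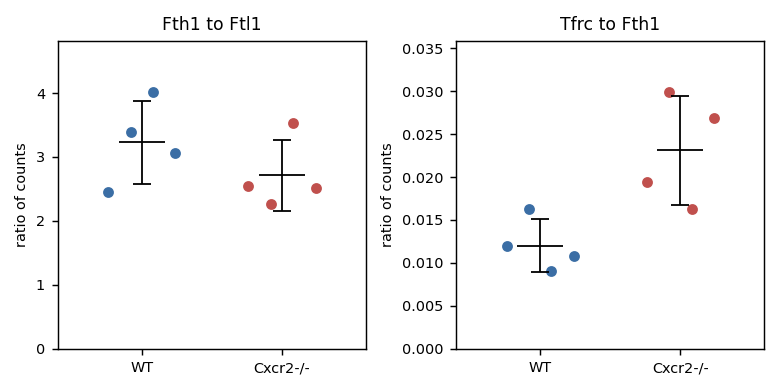
Ratio of Fth1 to Ftl1 counts (left) and of Tfrc to Fth1 counts (right) in each of the 4 WT (blue) and 4 Cxcr2-/- (red) libraries, with a line for the mean and bars for the SD. The first ratio overlaps between the groups, and the second is 0.00900 to 0.0162 in WT and 0.0163 to 0.0299 in Cxcr2-/- neutrophils.

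Steap4 encodes a membrane reductase of iron and copper that inflammatory signals are known to induce. The gene (ENSMUSG00000012428) lies on the + strand of chromosome 5 from 7960457 to 7982213. It was at 245, 115, 192 and 171 CPM in the WT libraries and at 281, 326, 345 and 375 CPM in the Cxcr2-/- libraries. The WT libraries differed among themselves by more than the Cxcr2-/- libraries, and the groups did not overlap. The means were 181 ± 54.1 and 332 ± 39.3 CPM, a 1.84-fold rise with a log2 fold change of 0.88 (SE 0.19, edgeR adjusted p = 0.00204). The relatives Steap1 and Steap2 were filtered out for low counts, and Steap3, averaging 0.308 ± 0.210 CPM in WT against 0.481 ± 0.201 CPM, did not pass (edgeR adjusted p = 0.349).

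Slc11a2 encodes DMT1, the carrier of ferrous iron out of the endosome, and was the lowest of the 9 genes. The gene (ENSMUSG00000023030) lies on the - strand of chromosome 15 from 100387898 to 100425072. It had 36, 64, 20 and 24 counts in the WT libraries and 24, 17, 69 and 77 counts in the Cxcr2-/- libraries, or 0.796, 1.29, 0.534 and 0.694 CPM and 0.607, 0.470, 1.75 and 1.87 CPM. Replicates 3 and 4 of Cxcr2-/- were above every WT library and replicates 1 and 2 lay inside or below the WT range. The log2 fold change of 0.50 (SE 0.45) did not pass (edgeR adjusted p = 0.400), and its approximate 95% interval from -0.39 to 1.38 allows changes in both directions. The summed erythroid markers were also higher in Cxcr2-/- replicates 3 and 4 (13.0 and 13.6 CPM) than in the other libraries (2.86 to 6.39 CPM). Within Cxcr2-/-, the summed macrophage markers were higher in replicates 3 and 4 as well, and the summed T cell markers, nearly all Cd3d, lower. The part of any of these cells in the level of Slc11a2 was not tested. Gm5475 on the opposite strand shares 402 exon bases with it.

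Slc11a1 (NRAMP1), the phagosomal relative of DMT1, was far more abundant, and it fell from 420.0 ± 23.9 to 266 ± 18.6 CPM. Whether DNA linked to the Cxcr2 allele had a part in this fall was not tested. Of the 11 other uptake genes listed, 7 were tested, 3 fell (Slc11a1, Trf and Mcoln1), 2 rose (Snx3 and Slc39a8) and 2 did not pass. That is 71.4% passed in a short list, against 44.7% of all genes. Trf, the gene of transferrin, fell from 87.6 ± 6.77 to 55.5 ± 14.6 CPM, and Snx3, which returns the transferrin receptor to the surface, rose from 52.4 ± 5.24 to 69.97 ± 4.64 CPM. Log2 fold changes were -0.66 for Slc11a1, -0.66 for Trf, -0.39 for Mcoln1, 0.42 for Snx3 and 1.40 for Slc39a8, and the edgeR adjusted p were 0.000106 for Slc11a1, 0.00471 for Trf, 0.0115 for Mcoln1, 0.00323 for Snx3 and 0.0168 for Slc39a8. Slc39a8 was at 0.277 ± 0.0931 CPM in WT, close to the lower end of what was measured, and did not pass without Cxcr2-/- replicate 3 (edgeR adjusted p = 0.0762).

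Hmox1 encodes heme oxygenase 1, which opens heme into biliverdin, carbon monoxide and iron. The gene (ENSMUSG00000005413) lies on the + strand of chromosome 8 from 75093621 to 75100589. It was at 109.6, 109.7, 113 and 91.3 CPM in the WT libraries and at 134, 117, 129 and 124 CPM in the Cxcr2-/- libraries. The lowest Cxcr2-/- library was just above the highest WT library, and WT replicate 4 stood below the others. The difference was 0.25 on the log2 scale (SE 0.09, edgeR adjusted p = 0.0442), 1.19-fold. The direction held in all 15 other fits, but the call was lost in 13 of them, including those that left out any 1 library other than Cxcr2-/- replicate 2, with edgeR and DESeq2 adjusted p from 0.0403 to 0.266 over the fits, and the lower values came with upper-quartile normalization (0.13) and total-count scaling (0.16).

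Of the other 12 genes of heme breakdown and transport, 10 were tested, 3 rose, 1 fell and 6 did not pass. That is 40% passed, near the 44.7% of all genes. Flvcr1, which encodes a transporter of heme or choline, fell from 86.5 ± 2.81 to 52.4 ± 5.23 CPM (log2 fold change -0.72, edgeR adjusted p = 3.95e-05). Hp, the gene of haptoglobin, which binds free hemoglobin and is made by developing neutrophils, rose from 1310.0 ± 238 to 2059 ± 243 CPM (log2 fold change 0.65, edgeR adjusted p = 0.00268). The others that rose were Slc48a1, which carries heme out of the lysosome (log2 fold change 0.37, edgeR adjusted p = 0.00809), and Blvra, a biliverdin reductase, from 1.95 ± 0.203 to 3.72 ± 0.645 CPM. Hmox2, the constitutive heme oxygenase, was at 16.8 ± 3.39 and 19.9 ± 1.83 CPM and did not pass (edgeR adjusted p = 0.187).

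Ireb2 encodes iron regulatory protein 2, which binds the hairpins shown above and is known to be controlled mainly by protein degradation. The gene (ENSMUSG00000032293) lies on the + strand of chromosome 9 from 54863789 to 54912530. It was at 94.2, 89.5, 98.8 and 92.9 CPM in the WT libraries and at 85.1, 109.5, 88.5 and 98.7 CPM in the Cxcr2-/- libraries. The WT libraries lay inside the range of the Cxcr2-/- libraries. On the log2 scale the difference was 0.02 (SE 0.10, edgeR adjusted p = 0.853), with an approximate 95% interval from -0.16 to 0.21. Aco1, which encodes the other iron regulatory protein, was at 9.54 ± 0.937 and 10.8 ± 0.812 CPM and did not pass (edgeR adjusted p = 0.252). Fbxl5, whose product degrades Ireb2 when iron is plentiful, was at 615 ± 16.4 and 519 ± 56.2 CPM, without overlap, and did not pass (log2 fold change -0.25, edgeR adjusted p = 0.0646). Under 5 of 15 other fits Fbxl5 did pass as lower, with DESeq2 (adjusted p = 0.0409), with upper-quartile (0.0101) and total-count scaling (0.0140) in edgeR, with at least 10 counts in every library (0.0323) and without Cxcr2-/- replicate 2 (0.0351).

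The 6 further regulators listed were Nfe2l2 (NRF2), its inhibitor Keap1, the heme sensor Bach1 and the small Maf proteins, which act together on the ferritin, Hmox1 and Slc40a1 genes. Maff fell from 28.5 ± 2.45 to 9.13 ± 3.78 CPM and Mafk from 108 ± 9.61 to 58.4 ± 9.35 CPM, while Mafg rose from 134 ± 8.03 to 194 ± 47.4 CPM. Keap1 rose from 14.5 ± 1.27 to 25.96 ± 4.06 CPM, Nfe2l2 fell from 251 ± 5.49 to 214 ± 7.63 CPM and Bach1, at 257 ± 23.6 and 248 ± 22.2 CPM, did not pass. On the log2 scale the changes were -1.64 for Maff, -0.88 for Mafk, 0.54 for Mafg, 0.84 for Keap1, -0.23 for Nfe2l2 and -0.05 for Bach1. The edgeR adjusted p were 0.000167 for Maff, 7.51e-05 for Mafk, 0.00996 for Mafg, 0.000146 for Keap1, 0.0382 for Nfe2l2 and 0.710 for Bach1. The small change of Nfe2l2 lost its call in 7 of 15 other fits, among them the one with the replicate block (edgeR adjusted p = 0.0592) and those without WT replicate 1 (0.0795) or 4 (0.0948) and without Cxcr2-/- replicate 2 (0.0782), 3 (0.0821) or 4 (0.0777).

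Of the heme synthesis genes, Alas1 and Cpox rose and 8 did not pass. Alas1, the rate-limiting enzyme of heme synthesis outside red cells, was at 80.3, 69.0, 73.4 and 81.0 CPM in the WT libraries and at 169, 142.5, 142.4 and 142.2 CPM in the Cxcr2-/- libraries (log2 fold change 0.97, edgeR adjusted p = 5.85e-06). Cpox, a later enzyme of the pathway, rose from 0.681 ± 0.269 to 1.58 ± 0.666 CPM (log2 fold change 1.196, edgeR adjusted p = 0.0168), a call that was lost without Cxcr2-/- replicate 4 (edgeR adjusted p = 0.0665) and with the replicate number as a block (edgeR adjusted p = 0.0506). The erythroid enzyme Alas2 was at 0.484 ± 0.0913 and 0.702 ± 0.352 CPM and did not pass (edgeR adjusted p = 0.302). Of 11 erythroid markers, 10 had a row, 5 passed the filter on low counts and none passed the edgeR test. Their summed level was 2.86 to 6.39 CPM in WT, 3.31 and 3.04 CPM in Cxcr2-/- replicates 1 and 2, and 13.0 and 13.6 CPM in replicates 3 and 4. The part of erythroid cells in the level of Alas1 was not tested.

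Among 20 genes of mitochondrial iron and iron-sulfur clusters, 19 were tested, 7 rose, 4 fell and 8 did not pass. That is 57.9% passed, against 44.7% of all genes. Nfu1, which hands clusters to enzymes, rose from 13.8 ± 1.53 to 30.2 ± 3.83 CPM. The paired assembly factors went apart: Isca2 rose from 5.43 ± 0.350 to 10.1 ± 0.243 CPM, and Isca1 fell from 60.02 ± 8.23 to 28.4 ± 10.2 CPM. Log2 fold changes were 1.13 for Nfu1, 0.90 for Isca2 and -1.08 for Isca1, and edgeR adjusted p were 1.26e-05 for Nfu1, 8.06e-05 for Isca2 and 0.00123 for Isca1. Bola3 and Cisd2 fell as well, with log2 fold changes of -0.47 for Bola3, a call lost in 5 of 8 fits with a library left out (WT replicates 3 and 4, and Cxcr2-/- replicates 1, 2 and 4, edgeR adjusted p up to 0.0871), and -0.46 for Cisd2. Iscu, the scaffold on which clusters form, fell from 42.5 ± 5.15 to 28.96 ± 1.75 CPM.

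The granule proteins that bind iron outside the cell were the most abundant of the wider list. Ltf (lactoferrin) rose from 8699.9 ± 594 to 21059 ± 3822 CPM, and Lcn2 (lipocalin 2, which takes up bacterial siderophores) from 2893 ± 341 to 8619 ± 1393 CPM. Log2 fold changes were 1.28 for Ltf and 1.57 for Lcn2, and edgeR adjusted p were 2.98e-05 for Ltf and 4.79e-06 for Lcn2. Over the wider list of 82 iron and heme genes, the 9 included, 70 were tested, 21 rose, 15 fell and 34 did not pass. That is 51.4% passed, against 44.7% of all genes, and the median log2 fold change was 0.18 against 0.01.

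**Figure D4:**
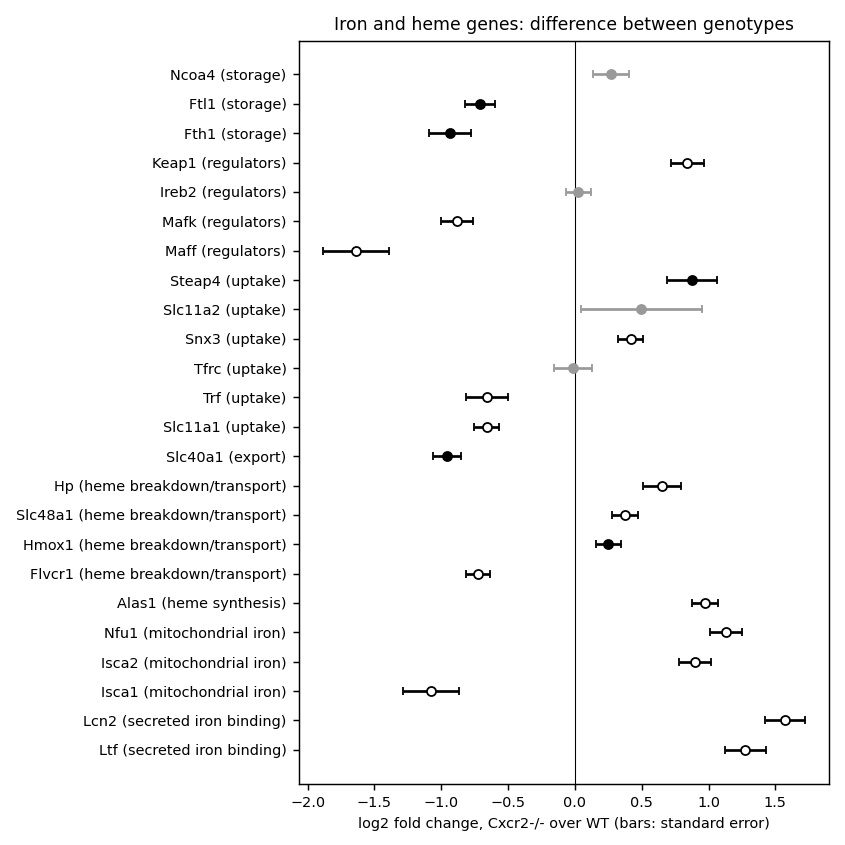
Log2 fold change (x axis, Cxcr2-/- over WT, with the standard error) of the 9 genes (filled) and of 15 further iron and heme genes (open), grouped by role, black where the adjusted p is under 0.05 and grey where it is not. Ferritin and Slc40a1 lie near -0.7 to -1, Lcn2 and Ltf above 1.2, and Tfrc and Ireb2 close to 0.

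Levels of the 9 genes were compared per length, as CPM per kilobase of merged exons (FPKM, mean ± SD, n = 4). In WT neutrophils the order was Fth1 (497 ± 75.2), Ftl1 (405 ± 56.3), Slc40a1 (128 ± 11.5), Hmox1 (60.5 ± 5.68), Steap4 (57.2 ± 17.1), Ncoa4 (12.01 ± 0.888), Ireb2 (9.90 ± 0.408), Tfrc (3.28 ± 0.580) and Slc11a2 (0.130 ± 0.0510). Fth1 and Ftl1 overlapped between libraries, as did Hmox1 and Steap4, and the other neighbours did not. In Cxcr2-/- neutrophils Steap4 (105 ± 12.5) came next after ferritin, before Hmox1 (72.0 ± 4.11) and Slc40a1 (65.9 ± 4.95), which overlapped. Fth1 (259.9 ± 54.4) and Ftl1 (248 ± 14.8) overlapped there too, as did Ncoa4 (14.5 ± 3.01) and Ireb2 (10.1 ± 1.16). Merged exons include retained introns. Over the length of the first listed transcript, Fth1 was at 1856 ± 281 and Ftl1 at 560.0 ± 77.9 in WT, and Slc40a1 (176 ± 13.2) stayed next after ferritin in Cxcr2-/- neutrophils. The place of Slc40a1 among the Cxcr2-/- levels thus depends on the length used.

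For each of the 5 genes that passed, the gene outside the lists with the most similar pattern was taken from 4184 genes of high expression, by the root-mean-square difference of log2 CPM over the 8 libraries, each gene centred on its mean. It was Napa for Fth1 (0.108), Adipor1 for Ftl1 (0.0619), Mdm1 for Slc40a1 (0.0716), Smpdl3a for Steap4 (0.122) and Slc2a1 for Hmox1 (0.0732). All 8 points share the split into 4 WT and 4 Cxcr2-/- libraries, on which the 5 genes were also called.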

How the data were processed

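RNA from sorted spleen neutrophils was depleted of ribosomal RNA and made into directional libraries. Per the methods, the authors trimmed reads, mapped them to mm10 (STAR) and counted them per gene (HTSeq). They deposited whole-number counts without normalization. Versions, annotation and strand setting are not given in the sources used here. Of the Ensembl identifiers, 52081 matched GENCODE M21 and 3333 did not (1.43% of the counts). Positions and exon lengths are those of M21, while the identifiers' versions point to a later release. Groups and replicate numbers came from the sample titles.

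Counts, at least 34220182 per library on genes, were tested in R 4.3.3 with edgeR 4.0.16 (quasi-likelihood, TMM, filterByExpr, Benjamini-Hochberg adjustment), without the HTSeq totals outside genes. DESeq2 1.42.0, which the authors used, was an alternative. Standard errors are the log2 fold change over the square root of F. In simulated counts for the 16778 genes tested, 200 genes, none of the lowest expression, were changed. Of these, edgeR recovered 81% of genes changed 2-fold and 100% of genes changed 4-fold. In the data 44.7% of genes passed, so these rates are not the power of the real comparison. No pair of libraries in a group agreed within sampling noise, the lowest chi-square per gene being 23.9, so none was taken as a duplicate.

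The 9 genes and the lists were chosen with earlier results of these data known. Named from each list were up to 3 genes with the largest change among those that passed, had no overlap of the groups and averaged a log2 CPM of 2 or more, and any gene that a count of 5 or fewer refers to, apart from results that are not reported here. Pcbp1, Pcbp2, Herc2, Hmox2, Aco1, Fbxl5, Bach1, Alas2, Steap3, Iscu, Bola3 and Cisd2 were named for their roles, and Top2a as a marker, after values were seen. Alternatives were other scalings and filters, the replicate number as a block, added ferritin copies and each library left out. The length of the first listed transcript was added after seeing the data.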

Additional observations from a re-analysis of the deposited data

Results flagged for a closer look

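Among 104 groups of 4 libraries examined (the genes named from the lists and the 2 ratios, each in WT and in Cxcr2-/- mice), 7 held a library far from the other 3 by Dixon's criterion, where chance gives about 1 in 20 groups. They were Fth1 in WT replicate 3 (2114 CPM), Hmox1 in WT replicate 4 (91.3 CPM), Alas1 in Cxcr2-/- replicate 1 (169 CPM), Nfu1 in WT replicate 4 (11.5 CPM), Isca2 in Cxcr2-/- replicate 3 (10.5 CPM) and Top2a, a marker of dividing cells, in WT replicate 4 (47.4 CPM) and in Cxcr2-/- replicate 2 (245 CPM). Without WT replicate 3 the log2 fold change of Fth1 was -0.84, and without WT replicate 4 that of Hmox1 was 0.19 (edgeR adjusted p = 0.147).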

How the results depend on the processing

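In all settings 3 of the 9 genes were lower, and the falls of Fth1 (-1.08 to -0.82), Ftl1 (-0.83 to -0.61) and Slc40a1 (-1.08 to -0.90) and the rise of Steap4 (0.69 to 1.06) passed in every fit, for ferritin also with the counts of its copies added. The number of the 9 genes that were higher went from 2 to 1, through the loss of Hmox1, with DESeq2, RLE, upper-quartile and total-count scaling, no filter, at least 10 counts in every library and the 1.5-fold threshold, and it was 1 to 2 with a library left out. Without Cxcr2-/- replicate 3 it stayed at 2 because Ncoa4 passed where Hmox1 did not. The cause was not tested. Tfrc, from -0.126 to 0.0963 with a library left out, and Ireb2, from -0.0423 to 0.0819, changed sign without passing, and Ireb2 did so too with upper-quartile (-0.0936) and total-count scaling (-0.0617) and with at least 10 counts in every library (-0.0110). Upper-quartile normalization shifted the median of all genes by -0.12. Genes higher over all genes went from 3969 to 2628 with the 1.5-fold threshold. In the wider list 27 to 39 genes passed.

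The replicate numbers showed no clear pairing of the mice: deviations of same-numbered libraries correlated from -0.26 to 0.16, and 2 of 4 WT libraries matched their own number best. So few libraries cannot exclude a pairing. With the replicate block, 5 of the 9 genes, 33 genes of the wider list and 7068 of all genes passed, against 5, 36 and 7495. Slc11a2, at 17 to 77 counts per library, had the widest interval of the 9 genes, and counting error and differences between libraries were not separated.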

Other observations

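Lrp1, which encodes a receptor for heme bound to hemopexin, differed between the Cxcr2-/- libraries. It was at 59.9, 63.0, 59.3 and 46.8 CPM in the WT libraries and at 47.1, 49.6, 149.98 and 135 CPM in the Cxcr2-/- libraries, so that replicates 3 and 4 were high and replicates 1 and 2 were within the WT range. It did not pass (log2 fold change 0.74, edgeR adjusted p = 0.0811), but did with no filter (0.72, edgeR adjusted p = 0.00816), without Cxcr2-/- replicate 1 (0.97, edgeR adjusted p = 0.0141) and without replicate 2 (0.95, edgeR adjusted p = 0.0205). The same replicates 3 and 4 had the higher counts of Slc11a2 and the higher sum of erythroid markers. Within Cxcr2-/-, the sum of macrophage markers was higher there too, at 302 and 311 CPM against 226 and 208 CPM in replicates 1 and 2. The sum of T cell markers went the other way, at 96.3 and 88.1 CPM against 137 and 116 CPM. Nearly all of that sum was Cd3d, at 95.4 and 87.3 CPM against 136 and 116 CPM. Cd3g averaged 0.753 CPM in Cxcr2-/- libraries and Cd3e was filtered out for low counts, so the sum describes Cd3d rather than T cells. The part of any of these cells in the level of Lrp1 was not tested. Lrp1 was picked out after its values were seen.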
